A study of Sparus aurata with 9 samples.

Results

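All 6 gilthead seabream that were exercised by water flow, at either speed, were compared here as a single group with the 3 fish kept at minimal flow, which is the whole series of 9 fish. The members are every fish that the labels place in an exercised group, and the comparison ran across all gene models from the raw counts. Control fish (*Sparus aurata* juveniles from a commercial farm) stayed at minimal flow for 8 months, 3 fish had swum for 8 months at 1 body length per second (1 BL/s) and 3 fish had swum for 8 months at 2 BL/s. White skeletal muscle of each fish was sequenced as mRNA, and the fish were picked by the study for similar size and normal morphology. Each group came from 1 tank, so that tank and water flow cannot be told apart. The spread given below is that between fish. In the controls these shared a tank, while the pooled exercised fish came from the tanks of both speeds.

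White (fast) muscle makes up most of the trunk of a fish and contracts by anaerobic glycolysis during bursts. The superficial red (slow) muscle is aerobic and drives steady swimming, and faster sustained swimming recruits white fibres as well. Sustained swimming is known in fish to favour growth of muscle fibres, capillary supply and oxidative capacity, while starvation and inactivity engage the FoxO transcription factors and the muscle-specific ubiquitin ligases that mark contractile proteins for breakdown.

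Total counts per fish lay between 3660245 and 5267310, and the 10 most abundant gene models took between 58.0% and 62.3% of them. The fast contractile apparatus held between 285850 and 362038 CPM (counts scaled to a common library total) in a fish and the slow and red muscle markers between 1.30 and 10.7 CPM in 8 of the 9 fish, which matches the labelled tissue. The exception was fish 2 of the 2 BL/s group with 151 CPM. A further pair of fish stood apart. Fish 3 of the 1 BL/s group had a count for 7780 gene models against 8721 to 9718 in the others and scored 53.6 on the leading principal component, which held 30.8% of the variance and put the remaining fish between -15.0 and -0.41. Control fish 2 scored 35.8 on the next component (16.8%), the remaining fish between -16.8 and 6.29.

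At an unadjusted p of 0.05 by edgeR's quasi-likelihood test, 173 of the 4241 gene models with enough counts to be tested (4.08%) differed between exercised fish and controls, 88 of them higher with exercise (2.07%) and 85 lower (2.00%). A threshold of 0.05 would by its own definition admit 212 of 4241 where nothing differed. No gene model passed the Benjamini-Hochberg adjusted threshold (smallest adjusted p by edgeR = 1.00). With DESeq2 the counts were 166 unadjusted and 0 adjusted (smallest adjusted p = 0.123), and with limma-trend 163 and 0. In 87 gene models (2.05%) all 6 exercised fish lay above (42, 0.990%) or below (45, 1.06%) all 3 controls in normalized counts, that is counts divided by the scaled library size. Were the 3 control labels placed at random among the 9 fish, complete separation in either direction would have a probability of 0.0238 (exact permutation). The observed share of 2.05% was no higher, so lack of overlap is given below as a description and not as evidence of a difference. Among the 173 calls, 53 (30.6%) had no overlap between the groups, 28 higher and 25 lower. All directions below are therefore unadjusted results, and "rose" and "fell" are used in that sense.

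**Figure D1:**
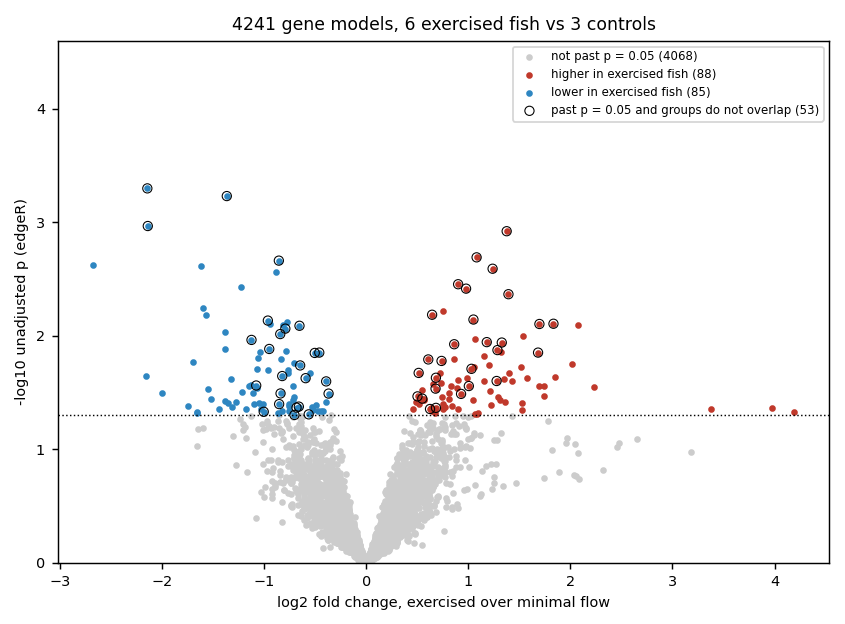
Log2 fold change of exercised fish over minimal flow (x) against -log10 of the unadjusted p by edgeR (y) for the 4241 gene models tested, 6 exercised fish and 3 controls. Red points are the 88 gene models higher and blue points the 85 lower past the unadjusted threshold (dotted line), and rings mark the 53 of them whose groups do not overlap.

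The calls depended on which fish was a control. Of the 85 gene models that fell, control fish 2 was the highest of the 9 fish in 55 (64.7%). Control fish 1 was the highest in 15 and control fish 3 in 15. Over all 4241 gene models tested, control fish 2 was the highest in 652, control fish 1 in 458 and control fish 3 in 310. A gene model called lower tends by that call to have a control as its highest fish. Only the split among the controls can therefore be compared. Without control fish 2, 38 gene models were lower in place of 85, and 63 of the 85 lost the unadjusted threshold. Of the 88 gene models that rose, control fish 2 was the lowest of the 9 fish in 39 (44.3%). Control fish 1 was the lowest in 24 and control fish 3 in 19. The split was similar over all gene models tested, with control fish 2 the lowest in 604, control fish 1 in 409 and control fish 3 in 327. Without control fish 2, 52 of the 88 lost the unadjusted threshold, and without control fish 1 or 3 it was lost by 42 and 51. When each of the 9 fish was left out in turn, 26 of the 173 calls passed every time, 15 higher and 11 lower, and 22 of these 26 had no overlap between the groups. Among the genes described here, these were MHC class II beta, granzyme B-like, angiopoietin-1, Dmrt2b, spermine synthase, glutathione peroxidase 3, telethonin-like, calsequestrin-2-like, the TFIID subunit 10, ribonuclease kappa, the SGT1 homolog, translation initiation factor IF-2-like, zinc finger 804A, myomegalin-like and DDX28, which rose, and MTSS1, anoctamin-1-like, cordon-bleu, myosin-XVIIIa, the ligand-dependent nuclear receptor corepressor, S-adenosylmethionine synthase-like, Krueppel-like factor 13, scleraxis-like and 1 fast myosin heavy chain model, which fell. At the other end, the calls of guanidinoacetate N-methyltransferase and paxillin-like were lost on leaving out any of 7 fish, and those of ryanodine receptor 3, ID-2, spermine oxidase, glycine N-methyltransferase and the scarcer MHC class II gamma chain on leaving out any of 6. The filter for low counts was set once, on all 9 fish, and was not repeated for each leave-out. Granzyme B-like, zinc finger 804A, calsequestrin-2-like, glutathione peroxidase 3, DDX28 and myomegalin-like had at most 8 raw counts in any control. They entered the test through the exercised fish, where they were higher. Their passing every time is thus partly set by the filter and is given as a description only.

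Among the gene models that rose, the MHC class II antigen beta chain, which presents peptides on antigen-presenting cells, had the smallest p. It had normalized counts of 25.4, 9.90 and 11.5 in the controls and from 31.1 to 53.0 (median 39.5) in the exercised fish. Every exercised fish lay above every control. The log2 fold change was 1.38 (SE 0.33, unadjusted p = 0.0012 by edgeR), and the slower and faster swimmers had 1.47 and 1.28 against the same controls. The value was 1.15 without control fish 2, or 1.29 when fish 3 of the slower group was left out. MHC class II beta, angiopoietin-1, Dmrt2b, MTSS1, anoctamin-1-like, myosin-XVIIIa, cordon-bleu, kelch 41, transmembrane 145 and a sodium channel type 4 gene model are the genes that the study names as common to both speeds. The study chose them on these fish, so their direction here is not independent evidence.

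Of 138 gene models in the antigen presentation list 33 had a count and 7 were tested. All 7 had a positive log2 fold change, against 2160 of 4241 over all gene models, with a median of 0.60 against 0.01. Of these, 3 passed the unadjusted threshold (2.07% higher over all gene models), namely MHC class II beta and both gene models of the MHC class II gamma chain, the invariant chain that guides class II molecules to the peptide-loading compartment. The more abundant gamma chain (Sa_5425.1.1) had 158, 314 and 213 normalized counts in the controls and 202 to 477 (median 391) in the exercised fish, with a log2 fold change of 0.73 (SE 0.29). Fish 1 of the 2 BL/s group, at 202, overlapped with the controls, and the other exercised fish lay above all of them. Granzyme B-like, a serine protease of cytotoxic lymphocytes, rose by 2.08 (SE 0.66, and 2.75 without control fish 2) at a low level of 1.02, 4.40 and 1.77 in the controls and 3.48 to 19.3 (median 10.6) in the exercised fish.

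The leukocyte marker list shares these class II chains and granzyme, so its values are not separate from those above. Of its 419 gene models 118 had a count, 19 were tested, 4 rose (2.07% over all gene models) and none fell. The 4 that rose were MHC class II beta, both gamma chain models and granzyme B-like. In all, 12 of the 19 had a positive value, with a median of 0.35. Its summed level was 142 to 250 CPM in the controls and 173 to 338 CPM in the exercised fish, and fish 1 of the 2 BL/s group was again the lowest of the exercised fish. The defining markers were near the limit of counting. CD45 (receptor-type tyrosine phosphatase C) had 3 to 6 counts per control and 2 to 7 per exercised fish, and the CD3 epsilon chain of T cells 0 to 2 and 0 to 3. CD3 gamma delta had 1, 2 and 1 counts in the controls and 3, 0, 7, 3, 3 and 1 in the exercised fish. In bulk tissue more cells of a type and more RNA per cell cannot be told apart, and the part of leukocyte content in these results was not tested. Of 10 interferon response gene models none passed the unadjusted threshold (median 0.18).

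Angiopoietin-1, a ligand of the endothelial receptor Tie2 that stabilizes vessels, rose in exercised fish. It had 18.3, 37.4 and 22.1 normalized counts in the controls and 47.0 to 72.8 (median 51.0) in the exercised fish, and the groups did not overlap. The log2 fold change was 1.08 (SE 0.28, unadjusted p = 0.00204 by edgeR), with 1.04 for the slower and 1.12 for the faster swimmers, and 1.43 without control fish 2. It was the only one of 17 vessel and endothelium gene models past the unadjusted threshold (4.08% over all gene models). The median of the list was -0.10.

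Dmrt2b, a DM-domain transcription factor of the family that in zebrafish acts in somite and early muscle development, had 8.13, 5.50 and 15.9 normalized counts in the controls and 16.9 to 37.9 (median 26.8) in the exercised fish. The groups did not overlap, although the highest control and the lowest exercised fish were close. The log2 fold change was 1.39 (SE 0.40), with 1.31 in the slower and 1.47 in the faster group. The related doublesex- and mab-3-related transcription factor 2 had 2.03, 5.50 and 8.86 in the controls. Fish at 1 BL/s had 19.1, 17.3 and 51.7, but those at 2 BL/s 5.66, 12.96 and 9.39. It rose over both speeds by 1.74 (SE 0.70), and the value at 2 BL/s minus that at 1 BL/s was -1.62 (unadjusted p = 0.0146, adjusted p = 0.872 by edgeR). Of the 22 gene models of myogenic regulation 3 rose and 2 fell (2.07% and 2.00% over all gene models), with a median of -0.07. The third that rose, at a low level, was the DNA-binding inhibitor ID-2, an antagonist of basic helix-loop-helix factors (1.53, SE 0.66). Its control fish 1 (8.13) stood above the other controls (1.10 and 0.885), and leaving out 1 fish moved the value between 1.05 and 3.17. Myocyte-specific enhancer factor 2C, which drives muscle structural genes, fell by 1.11 (SE 0.46), with 75.2, 30.8 and 77.9 in the controls and 5.17 to 51.3 (median 29.7) in the exercised fish.

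Enzymes of polyamine and redox metabolism were also among the genes that rose. Spermine synthase, which makes the polyamine spermine, had 34.6, 38.5 and 27.5 normalized counts in the controls and 42.5 to 78.9 (median 62.3) in the exercised fish. These groups did not overlap, and the log2 fold change was 0.90 (SE 0.25). Spermine oxidase, which degrades spermine, fell by 0.76 (SE 0.33), from 13.2, 24.2 and 37.2 in the controls to between 12.2 and 18.9 (median 13.6), with overlapping groups. Glutathione peroxidase 3, a secreted enzyme that reduces peroxides, had 4.07, 1.10 and 4.43 in the controls and 4.72 to 19.1 (median 11.8) in the exercised fish. All exercised fish lay above all controls, with a log2 fold change of 1.83 (SE 0.58) in all, 2.28 in the slower and 1.2003 in the faster group. The level was low, however. Control fish 3 and fish 1 of the 2 BL/s group both had 5 raw counts, so that the separation of these fish came from the scaling alone. Thioredoxin-like, an electron donor in the reduction of oxidized proteins, rose by 0.49 (SE 0.21), and these were the 2 of 14 antioxidant gene models that rose (2.07% over all gene models), with a median of 0.15. The antioxidant list summed to 345 to 388 CPM in the controls and 431 to 482 CPM in the exercised fish, without overlap, whereas the summed normalized counts of its tested members overlapped.

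The other gene models with the smallest p that rose belong to none of the gene lists. The TFIID subunit 10, part of a general transcription initiation factor, had 13.2, 9.90 and 13.3 normalized counts in the controls and 18.8 to 46.5 (median 27.6) in the exercised fish. Its log2 fold change was 1.24 (SE 0.33). Ribonuclease kappa, an endoribonuclease, had 25.4, 18.7 and 23.0 against 33.5 to 64.6 (median 39.6), at 0.98 (SE 0.28). DDX28, an RNA helicase of the mitochondrial ribosome, had 6.10, 4.40 and 6.20 against 8.97 to 17.4 (median 12.4), at 1.18 (SE 0.40). Neither in these nor in zinc finger 804A (1.70, SE 0.54) and translation initiation factor IF-2-like (1.05, SE 0.33) did the groups overlap. Zinc finger 804A was at a low level, with 3.05, 2.20 and 3.54 in the controls and 4.98 to 14.8 (median 9.71) in the exercised fish. The SGT1 homolog, a co-chaperone (0.75, SE 0.23), myomegalin-like, a centrosome and Golgi protein (1.53, SE 0.51), and the immediate early response 3-interacting protein 1 (1.06, SE 0.35) rose with 1 exercised fish each at or below the highest control.

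Of the 51 tested members of the fast contractile apparatus 3 rose and 5 fell, against 2.07% and 2.00% of all gene models, with a median of -0.07. Telethonin-like, the titin cap of the Z-disc, had 133, 125 and 143 normalized counts in the controls and 150 to 248 (median 206) in the exercised fish, without overlap, and rose by 0.65 (SE 0.20). Some gene models described as fast skeletal myosin heavy chain, the motor of the thick filament, fell. Sa_37941.1.1 had 29404, 27218 and 29624 in the controls and 16581 to 26090 (median 20670) in the exercised fish, again without overlap, at a log2 fold change of -0.46 (SE 0.16). Sa_12984.1.1 had -0.50 (SE 0.18). Both are described as partial. Sa_53203.1.1 and Sa_50218.1.1, not described as partial, also fell without overlap, at -0.56 (SE 0.26) and -0.37 (SE 0.15). Sa_53203.1.1 was the most abundant of these, with a mean of 129837 in the controls and 87866 in the exercised fish. Its call was lost on leaving out any of 6 fish, and that of Sa_50218.1.1 on any of 4. Reads may have been divided among close copies of this gene family. In each of these models the lowest fish was fish 3 of the 1 BL/s group. A myosin regulatory light chain of skeletal muscle rose by 1.06 (SE 0.39), from 2635, 3471 and 7424 in the controls to between 6211 and 17752 (median 7602), with overlap through control fish 3. Troponin skeletal muscle (Sa_189.2.1) rose by 1.69 (SE 0.68), the largest change among the called members. It had 406, 72.6 and 309 in the controls and 116 to 1515 in the exercised fish, with overlap. Its call was lost on leaving out any of 3 fish. Myomesin-2-like, a crosslinker of thick filaments, fell by 0.39 (SE 0.17), also with overlap. The counts of the list turned on single fish: without control fish 3 1 member fell, while 11 fell once fish 3 of the 1 BL/s group was left out.

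Calsequestrin-2-like, the calcium store protein of the sarcoplasmic reticulum, rose by 1.33 (SE 0.45) at a low level, from 3.05, 5.50 and 4.43 normalized counts in the controls to between 7.12 and 14.9 (median 11.2), without overlap. Ryanodine receptor 3, a calcium release channel, was abundant at 9505, 12519 and 11287 in the controls and 4993 to 10568 (median 8237) in the exercised fish. It fell by 0.45 (SE 0.20), with overlap. None of the other tested members of calcium handling, 22 in all, passed (4.08% over all gene models, median of the list -0.02). The sodium channel type 4 alpha B-like (Sa_27160.1.1), of the family that fires the muscle action potential, had 37.6, 36.3 and 25.7 in the controls and 1.29 to 28.7 (median 14.5) in the exercised fish, at -1.10 (SE 0.48). It was the only one of 8 sodium channel gene models past the threshold (4.08% over all gene models). Another gene model of this channel (Sa_26952.1.1) had too few counts to be tested, with 12, 7 and 10 counts in the controls and 2, 0, 0, 1, 9 and 8 in the exercised fish. The ratio of exercised to control counts was 0.377 (95% counting interval 0.202 to 0.690), and fish 2 and 3 of the 2 BL/s group were at the level of the controls.

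**Figure D2:**
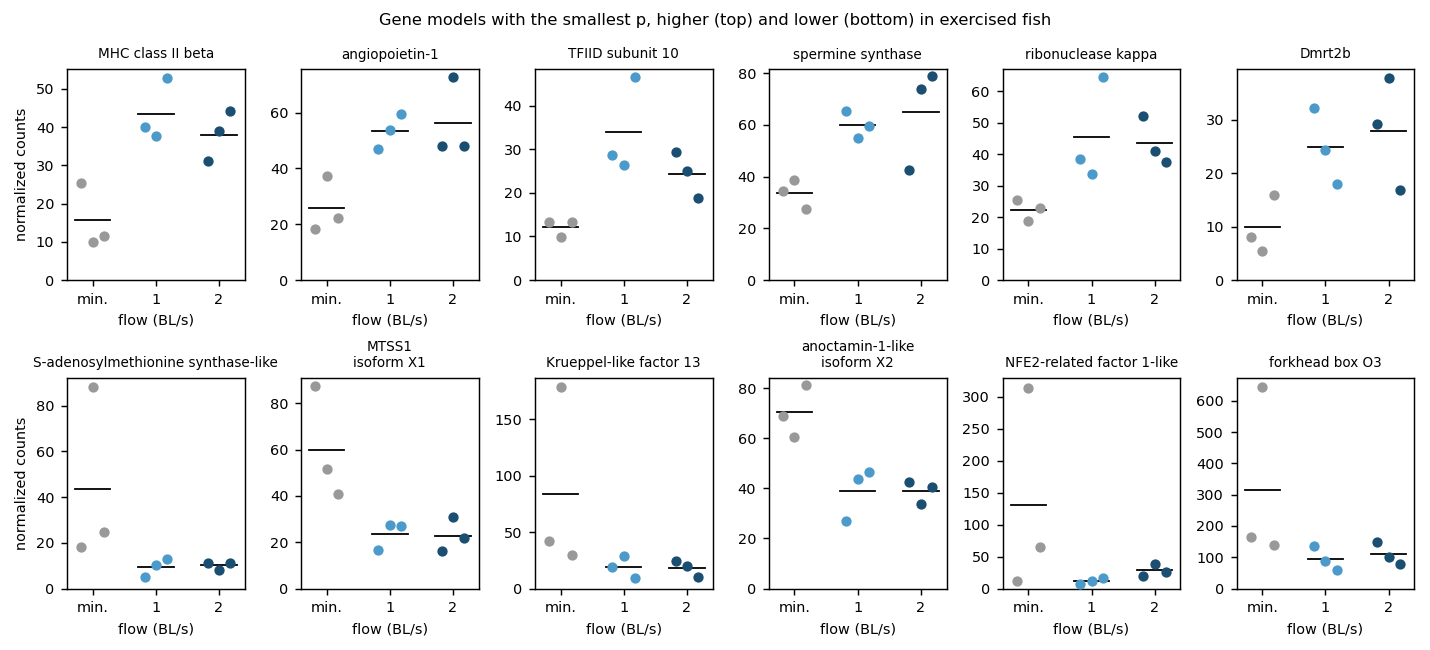
Normalized counts (y, from 0) of each fish at minimal flow, 1 BL/s and 2 BL/s (x) for the 6 gene models with the smallest p that were higher and the 6 that were lower in exercised fish. Points are single fish and bars group means. MTSS1 and anoctamin-1-like were lower in every exercised fish than in every control, while Krueppel-like factor 13, the NFE2-related factor and forkhead box O3 had control fish 2 far above the rest.

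In several genes that fell, control fish 2 was not the highest fish. MTSS1, an actin-binding protein that bends membranes, had 87.4, 51.7 and 40.7 normalized counts in the controls and 16.0 to 30.9 (median 24.4) in the exercised fish, without overlap. The log2 fold change was -1.37 (SE 0.30, unadjusted p = 0.000588 by edgeR), -1.34 for the slower and -1.39 for the faster swimmers, and -1.46 without control fish 2. Control fish 1 was the highest, and without it the value was -0.99. The exact two-sided permutation test over the 84 arrangements of 3 controls among 9 fish gave p = 0.0238, the smallest it can give. Every gene model without overlap gets this value, so it adds nothing to the separation. Anoctamin-1-like, a calcium-activated chloride channel, had 69.1, 60.5 and 81.5 in the controls and 27.0 to 46.5 (median 41.4) in the exercised fish, at -0.86 (SE 0.22). Cordon-bleu, an actin nucleator, had 359, 321 and 311 against 83.97 to 258 (median 194), at -0.84 (SE 0.28). Myosin-XVIIIa, an unconventional myosin of the cytoskeleton, had 117, 128 and 130 against 24.5 to 99.1 (median 64.5), at -0.96 (SE 0.30), and the ligand-dependent nuclear receptor corepressor 98.6, 90.2 and 90.3 against 43.9 to 80.1 (median 57.9), at -0.65 (SE 0.21). The prostaglandin F2 receptor negative regulator, a membrane protein, fell by 0.77 (SE 0.24), with 1 exercised fish (46.8) just above control fish 2 (46.2), and lost the threshold without control fish 1 (-0.57). In cordon-bleu, myosin-XVIIIa and the corepressor the lowest fish was fish 3 of the 1 BL/s group, without which the values were -0.70, -0.81 and -0.59.

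Of 88 tested gene models of the actin cytoskeleton and adhesion, 6 fell and 2 rose (2.00% and 2.07% over all gene models), with a median of -0.12. In 7 all exercised fish lay below all controls (of 45 over all 4241), and in 0 above (of 42). Besides the 3 above, ankyrin-2, which anchors membrane proteins to spectrin (-0.65, SE 0.24), and paxillin-like, an adaptor of focal adhesions (-1.004, SE 0.46), fell without overlap. In both, fish 3 of the 1 BL/s group was far the lowest, at 80.1 and 1.29 normalized counts. The other fish had at least 147 and 18.3. The summed list was 2740 to 3339 CPM in the controls, 2105 CPM in that fish and 2824 to 3194 CPM in the other exercised fish. Formin-2-like, an actin assembly factor, fell by 1.06 (SE 0.38), but its control fish 1 (41.7) lay below all exercised fish. The 2 that rose were filamin-A-interacting 1-like (2.02, SE 0.74), at a low level, and laminin subunit beta-1-like (1.35, SE 0.53), both with overlap.

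In the next genes control fish 2 was the highest of the 9 fish. FoxO3, the transcription factor that switches on autophagy and ubiquitin ligase genes in wasting muscle, had 164, 645 and 141 normalized counts in the controls and 59.4 to 148 (median 94.5) in the exercised fish. Its log2 fold change was -1.62 (SE 0.43), and -0.57 without control fish 2 (unadjusted p = 0.0944 by edgeR). Muscle RING finger 1, a ubiquitin ligase of sarcomere proteins and a target of FoxO factors in mammals, had 299, 2809 and 522 in the controls and 297 to 1048 (median 382) in the exercised fish. It went from -1.31 (SE 0.58) to 0.25 without control fish 2. Kelch 38 had 45.7, 1398 and 208 against 17.4 to 285 (median 126), and went from -1.999 (SE 0.83) to 0.11. In both, the exercised fish covered the range of the other controls. Nuclear factor erythroid 2-related factor 1-like, which in mammals drives proteasome gene transcription, had 11.2, 315 and 64.6 against 6.96 to 38.9 (median 18.3), and went from -2.68 (SE 0.70) to -0.92 (unadjusted p = 0.156 by edgeR).

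Muscle RING finger 1 and FoxO3 were the 2 of 21 FoxO, atrogene and autophagy gene models past the threshold, both lower (2.00% over all gene models), with a median of -0.04, and the summed list had 540 and 621 CPM in control fish 1 and 3, 1321 CPM in control fish 2 and 609 to 765 CPM in the exercised fish. LPIN1, a phosphatidate phosphatase of lipid synthesis, also fell with the highest value in control fish 2 (1054, 2026 and 1245 against 514 to 1113, median 786). It had a log2 fold change of -0.82 (SE 0.26) with that fish and lost the threshold without it (-0.49). Multidrug resistance-associated 4, an efflux pump, went from -1.23 to -0.68, the B delta regulatory subunit of protein phosphatase 2A from -0.94 to -0.71, tumor necrosis factor alpha-induced 2-like from -1.60 to -0.79, and the dentin sialophospho-like gene model from -1.57 to -0.35, all past the unadjusted threshold only with that fish.

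Other genes of this kind kept the threshold. S-adenosylmethionine synthase-like, which makes the methyl donor of the cell, had 18.3, 88.0 and 24.8 normalized counts in the controls and 5.22 to 12.9 (median 10.7) in the exercised fish, so that every exercised fish was below every control. The log2 fold change was -2.14 (SE 0.46, unadjusted p = 0.000503 by edgeR) and -1.14 without control fish 2 (unadjusted p = 0.0122). Krueppel-like factor 13, a zinc finger transcription factor, had 41.7, 178 and 30.1 against 9.04 to 28.5 (median 19.5), and went from -2.14 (SE 0.51) to -0.93 without control fish 2. Scleraxis-like, the basic helix-loop-helix factor of tendon progenitors, had 609, 971 and 517 against 287 to 528 (median 366), and went from -0.89 (SE 0.24) to -0.58, with fish 3 of the 1 BL/s group (528) above control fish 3. The tendon and fibroblast marker list had 3 of 9 tested members with a positive value and a median of -0.17. Its sum, most of it collagen alpha-1(I), was 1201 to 2085 CPM in the controls and 1410 to 4904 CPM in the exercised fish. Tenomodulin, a tendon membrane protein, was also highest in control fish 2, with 24 and 12 counts for its gene models against 3 to 14 and 3 to 8 in the other fish. The part of tendon tissue in the scleraxis values was not tested. The one-carbon, serine and creatine list had 1 of 23 gene models higher and 4 lower (2.07% and 2.00% over all gene models), with a median of -0.13. Besides the synthase and spermine oxidase, glycine N-methyltransferase, which consumes the methyl donor, fell by 0.76 (SE 0.34), as did guanidinoacetate N-methyltransferase, which makes creatine (-0.53, SE 0.23).

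**Figure D3:**
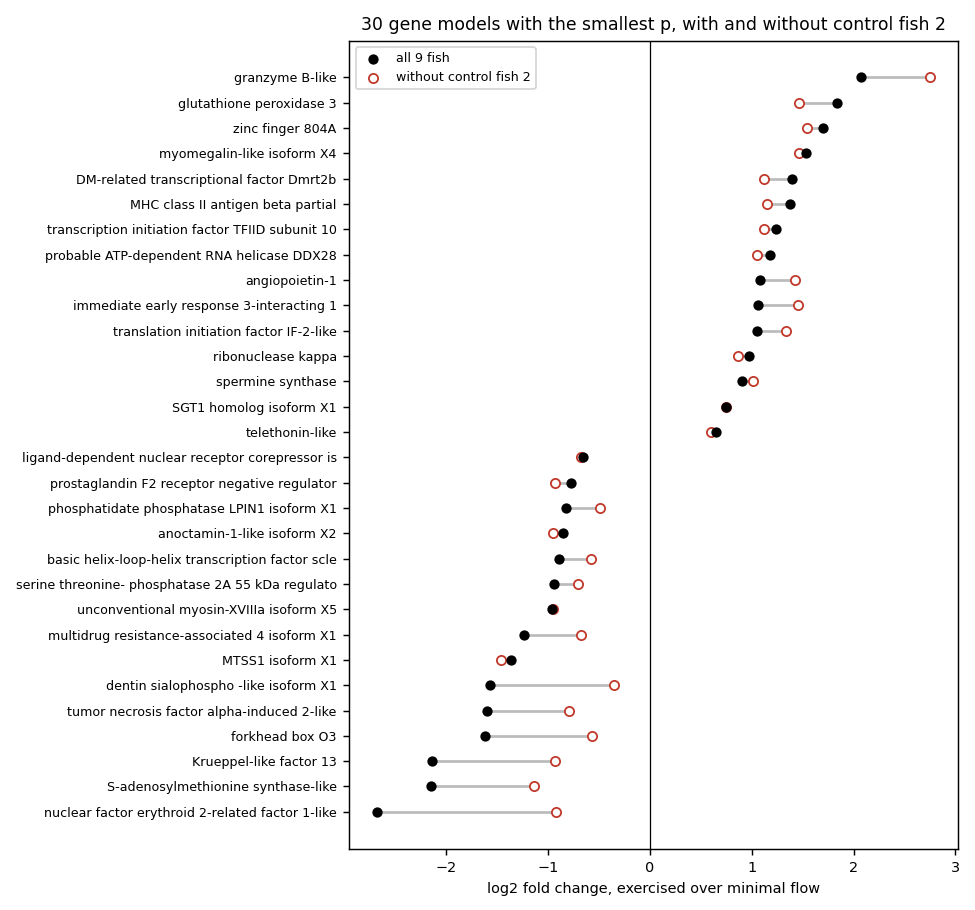
Log2 fold change of exercised fish over minimal flow (x) for the 15 gene models with the smallest p in each direction (y), with all 9 fish (filled) and without control fish 2 (open). FoxO3 went from -1.62 to -0.57 and the nuclear factor erythroid 2-related factor 1-like from -2.68 to -0.92, while granzyme B-like went from 2.08 to 2.75.

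Some of the largest rises came from 1 exercised fish. Collagen alpha-1(X), the collagen of hypertrophic cartilage, had 75.2, 55.0 and 84.1 normalized counts in the controls, 198, 7.12 and 81.4 in the slower group, and 113, 123 and 6254 in the faster one. Its log2 fold change of 3.98 (SE 1.77) was 0.55 without fish 3 of the 2 BL/s group. The same fish held 1097 of papilin-like, a matrix protein with protease inhibitor domains, against 1.02 to 21.8 in the other 8 fish, and 4904 CPM of the tendon and fibroblast markers against 1201 to 2422. Slow troponin (troponin slow skeletal and cardiac muscles-like) rose by 3.38 (SE 1.51) through fish 2 of the 2 BL/s group, with 364 counts against 3 to 36 in the other 8 fish. That fish also held 117 counts of another slow troponin model against 0 to 2, and 29 of slow-type myosin-binding protein against 0 to 3, while myoglobin had 0 counts in all 9 fish. The part of neighbouring red muscle or connective tissue in these samples was not tested. Hyaluronan and proteoglycan link 1, which ties aggrecan to hyaluronan in cartilage, rose from 101, 120 and 72.6 to between 121 and 182 (median 151), at 0.61 (SE 0.22). Its lack of overlap came from the scaling, with 94 raw counts in fish 3 of the 1 BL/s group and 109 in control fish 2. The call was lost on leaving out 1 of the fish. Of 60 collagen and matrix gene models, collagen alpha-1(X) alone rose and 2 fell (2.07% and 2.00% over all gene models), with a median of 0.02. Those that fell, both with overlap, were collagen alpha-1(XIX) (-1.07, SE 0.43) and collagen alpha-6(IV) (-1.75, SE 0.77).

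The energy and protein pathways moved little as groups. Of 54 respiratory chain and ATP synthase gene models 1 rose (2.07% over all gene models), the 75 kDa subunit of complex I (1.203, SE 0.44). This subunit had 5.08, 7.70 and 5.31 normalized counts in the controls and 6.61 to 20.3 (median 12.6) in the exercised fish. The list had 45 positive values and a median of 0.16, which was 0.32 in the slower and 0.01 in the faster group. In the citric acid cycle list (13 gene models, median 0.13) 1 rose (2.07% over all gene models), the cytoplasmic malate gene model, by 0.86 (SE 0.31). Its description names a cytoplasmic form, and no other member of the list passed. It had 99.6, 184 and 160 in the controls and 136 to 374 (median 297) in the exercised fish, with overlap. The call was lost on leaving out 1 of the fish. In glycolysis aldolase B was the only one of 25 past the threshold (4.08% over all gene models), at 2.23 (SE 0.90). It had 0 to 5.31 in the controls and 4.72 to 47.0 in the exercised fish, with 47.0 in fish 3 of the 2 BL/s group. The median of the glycolysis list was -0.07. None of the 16 gene models of fatty acid uptake and oxidation passed the unadjusted threshold.

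The proteasome, which degrades ubiquitin-tagged proteins, had 17 of 19 positive values and a median of 0.24, and none passed the unadjusted threshold. Its sum was 313 to 347 CPM in the controls and 381 to 498 CPM in the exercised fish, without overlap, but the summed normalized counts of its tested members overlapped. Of the 28 pathway lists, only the sums of the proteasome, antioxidant and antigen presentation lists were separate in CPM, all higher with exercise. For antigen presentation the CPM ranges lay close together (157 to 212 in the controls against 215 to 344). In normalized counts only the sum of antigen presentation was separate (703 to 890 against 913 to 1222). The 37 cytosolic ribosomal proteins had a median of -0.09 and none passed. Their median was 0.10 for the slower and -0.32 for the faster swimmers. Likewise none of the 29 gene models in the translation factor list passed. Translation initiation factor IF-2-like, which rose, is outside the word pattern of that list. Nor did any of 31 listed heat shock proteins and chaperones, 14 clock genes, 10 immediate early and stress genes or 6 gene models of the GH, IGF and insulin axis pass. Insulin receptor substrate 1-B-like, for example, had 171, 141 and 90.3 in the controls and 23.3 to 173 (median 89.7) in the exercised fish, at -0.53 (SE 0.43). Hamartin-like, a brake on mTOR, at -0.71 (SE 0.30), was the only one of 21 mTOR and AMPK gene models past the threshold (4.08% over all gene models). Among 22 kelch gene models 2 fell (2.00% over all gene models), kelch 38 and kelch-like ECH-associated 1, the repressor of the Nrf2 antioxidant factor. The latter fell by 0.78 (SE 0.27), and had 98.6, 132 and 103 in the controls and 38.8 to 103 (median 57.9) in the exercised fish.

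**Figure D4:**
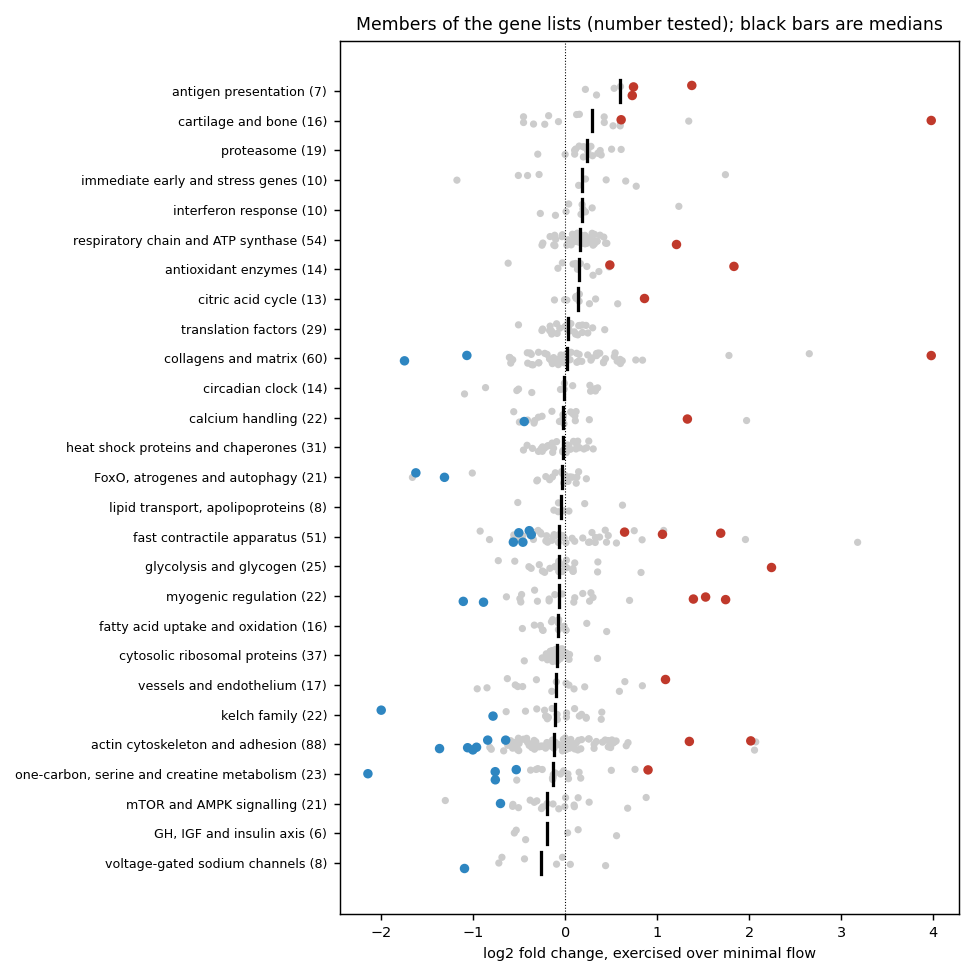
Log2 fold change of exercised fish over minimal flow (x) of the tested members of each pathway list with at least 3 of them (y, number tested in brackets). Red and blue points passed an unadjusted p of 0.05 higher or lower, grey points did not, and black bars are medians. The median of antigen presentation was 0.60 and those of the other pathway lists shown lay between -0.27 and 0.29.

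Some gene models were counted in 1 group only. Of the 14465 gene models with any count, 52 (0.359%) had none in the 3 controls and a count in at least 5 exercised fish, 13 of them in all 6. The reverse, a count in all 3 controls and none in the 6 exercised fish, held for 5 (0.0346%). The rules differ, with 6 fish against 3, and the shares cannot be set against each other. Kelch 41, a protein of the kelch family that is abundant in muscle, had the most counts, with 2, 6 and 2 in the slower swimmers, then 19, 12 and 2 in the faster ones. With 3 counts over the control group taken as a floor, which is a convention, the ratio to the controls was 7.84. The gene models of this paragraph counted in 1 group only were picked for that pattern. Their ratios are thus descriptions and not evidence of a difference. The others were sparser. Rap guanine nucleotide exchange factor 3-like, activated by cyclic AMP, had 4, 1, 3, 6, 5 and 1 counts (3.65 on the same floor). Poly [ADP-ribose] polymerase 14-like had 11, 4, 1, 0, 3 and 1. Centlein, a centriole protein, led the reverse list with 2 counts in each control (3.66-fold lower with a floor of 3 counts over the exercised group). Transmembrane 145, too sparse to be tested, had 6, 11 and 19 counts in the controls and 4, 1, 0, 3, 1 and 1 in the exercised fish, a ratio of 0.152 (95% counting interval 0.0673 to 0.313). The intervals cover counting error only.

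The speeds were compared in a fit of the 3 groups on the same 4241 gene models. At the unadjusted threshold 216 (5.09%) differed at 1 BL/s and 146 (3.44%) at 2 BL/s from the shared controls, and 206 (4.86%) between the speeds, with none past the adjusted threshold of edgeR in any of them. Of the 173 gene models called over both speeds, 3 also differed between the speeds, namely papilin-like, collagen alpha-1(X) and the doublesex- and mab-3-related transcription factor 2, of which the first and second rest on fish 3 of the 2 BL/s group.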

How the data were processed

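The authors aligned paired reads of stranded mRNA libraries with TopHat2 2.0.13, dropped secondary alignments with SAMtools 1.2 and counted with HTSeq 0.6.1p1 (paper, and processing notes of the submitters). The deposited counts are the authors' raw fragment numbers per gene model. Group means of normalized values, fold changes and p-values computed by the authors were not used, nor were 2 columns without a sample label. The counting's strand setting is not given in the sources used here. Reads of near-identical copies, or of genes on opposite strands, may thus have been misassigned. Names are the tables' descriptions. The tables were joined by identifier (61849 gene models, 14465 with a count), and their repeated columns held the same values. All pairs of fish differed by far more than sampling noise (chi-square over degrees of freedom at least 11.3).

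Tests used edgeR 4.0.16 in R 4.3.3 (TMM, filterByExpr, glmQLFTest) and were checked on simulated data. DESeq2 1.42.0 and limma 3.58.1 were alternatives. Normalized counts are counts over effective library sizes whose geometric mean was set to 1, and CPM are counts scaled to a common library total. The 28 pathway and 8 marker lists are word patterns on the descriptions. Named were up to 15 gene models per direction by p, the genes the study names as common to both speeds, up to 4 called members of each pathway list (or the 2 most abundant where none passed), up to 5 counted in 1 group only, and those of the first kind with the smallest p between speeds. The DNA-binding inhibitor ID-2, ankyrin-2, paxillin-like, guanidinoacetate N-methyltransferase, myomesin-2-like, papilin-like and the marker genes fall outside this rule and were chosen after their values were seen. The same holds for the myosin heavy chain models Sa_53203.1.1 and Sa_50218.1.1, troponin skeletal muscle, filamin-A-interacting 1-like and laminin subunit beta-1-like. Members and lists were chosen with earlier results of these data known. Separate animals were sampled, so p-values set a difference against the spread between fish. Among the pooled exercised fish that spread includes any difference between the tanks and speeds.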

Additional observations from a re-analysis of the deposited data

Results flagged for a closer look

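In 87 sets of 6 exercised fish (the named gene models, the marker lists and the first principal component), the highest or lowest fish was checked for its distance from the rest, and 14 stood far from the others. The rule is meant to flag about 1 in 20 sets by chance. The sets here are not independent, since the same fish and related genes recur in them, and in each of the 14 the distant fish was the highest. The number flagged is therefore a description and cannot be set against that rate. Fish 3 of the 1 BL/s group was the distant one in 8: the first principal component (53.6), 40S ribosomal S2 (10280 normalized counts), 40S ribosomal S3a (8140), elongation factor 1-gamma (8030), muscle RING finger 1 (1048), the doublesex- and mab-3-related transcription factor 2 (51.7), growth arrest and DNA damage-inducible GADD45 gamma (584) and immediate early response gene 2-like (390.1). Fish 3 of the 2 BL/s group was the distant one in 4: the tendon and fibroblast markers (4904 CPM), collagen alpha-1(X) (6254 normalized counts), translation initiation factor IF-2-like (146) and fructose-bisphosphate aldolase B (47.0). Fish 2 of the 2 BL/s group had 151 CPM of slow and red muscle markers, and fish 1 of that group 228 normalized counts of lipoprotein lipase.

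Between the speeds, 3 named gene models passed edgeR's unadjusted threshold, on the log2 scale of 2 BL/s minus 1 BL/s: the doublesex- and mab-3-related transcription factor 2 (-1.62), collagen alpha-1(X) (4.49) and class E basic helix-loop-helix 40, a repressor of the circadian clock (-1.71). None passed the adjusted threshold.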

How the results depend on the processing

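With no gene model left out for low counts, 679 passed the unadjusted threshold in place of 173 (334 higher, 345 lower), 75 passed the adjusted threshold in place of 0, and 194 had no overlap in place of 87. Of those 75, 56 were also tested with the filter and none of these passed there. The cause was not tested. Requiring a count in all 6 exercised fish left 13 gene models counted only in them in place of 52. Leaving out each fish in turn gave 122 to 219 calls, 68 to 108 higher and 38 to 127 lower, with 0 past the adjusted threshold each time. Without control fish 2, 58 of the 173 calls (33.5%) remained, and muscle RING finger 1 and kelch 38 reversed (ranges over the fish left out -1.77 to 0.25 and -2.54 to 0.11). Without control fish 2 and fish 3 of the 1 BL/s group together, chosen after seeing the data, there were 218 calls (100 higher, 118 lower). Other scaling (179), DESeq2 (166), limma-trend (163), a minimum mean of 10 counts (149) and a fit of 3 groups (172) kept 136 to 171 of the 173. Correlations between fish of different groups were taken on their deviations from the group mean in log2 CPM, not on the levels themselves. They ran from -0.03 to 0.18 with the same replicate number and from -0.20 to 0.13 with a different number. Whether the numbers pair fish was not tested, and the fit with the replicate number as a block gave 169 calls.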
